A study of Homo sapiens with 9 samples.

Results

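Collagen chain genes were taken as every gene of the table whose symbol begins with COL, followed by a type number, A and a chain number. The rule, which uses the symbol alone and no measured value, found 44 of 60606 genes. They were divided into 11 fibrillar chains, 6 chains of type IV collagen of the basement membrane, and 27 minor chains of the other types. Each of U87, GSCs and Diff was profiled by RNA-seq with 3 libraries. U87, an established human glioblastoma line, was grown in DMEM with fetal bovine serum and is the parental line, labelled wild-type. GSCs are the stem cells derived from U87, kept in serum-free DMEM/F12 with B27, bFGF and EGF and irradiated repeatedly to select for radioresistance, and Diff cells are their progeny, differentiated in DMEM with serum and picked from clonal colonies. GSCs therefore differ from U87 in medium, irradiation and stem cell state together, Diff cells differ from GSCs in medium, differentiation and clonal picking, and Diff cells differ from U87 in irradiation history, passage through the stem cell state and clonal picking. Within each comparison the parts of these factors cannot be told apart.

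Collagens are secreted proteins in which 3 alpha chains wind into a triple helix. Fibrillar collagens, chiefly type I with some type V, assemble into the banded fibrils that bear tension in connective tissue. Type IV collagen forms the sheet-like network of basement membranes, and type VI forms beaded microfilaments close to cells. Normal brain parenchyma holds little fibrillar collagen, which is otherwise found around vessels and in the meninges, whereas glioblastoma cells in culture are known to make several collagens.

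Transcript levels were read as TPM, the number of transcripts of a gene among 1000000, in which gene length is divided out so that chains can be set beside each other. The annotation release behind these lengths is not given, and sums, shares and ratios across chains depend on the lengths used. The collagen chains together held 4149 ± 171 TPM (SD, n = 3) in U87, 4511 ± 582 TPM (SD, n = 3) in GSCs and 2141 ± 64.1 TPM (SD, n = 3) in Diff cells. Diff cells lay below every library of the other lines, while U87 and GSCs overlapped. Fibrillar chains made up 23.6% ± 1.16 (SD, n = 3) of the sum in U87, 5.50% ± 0.887 (SD, n = 3) in GSCs and 23.6% ± 1.01 (SD, n = 3) in Diff cells. Type VI chains made up 71.9% ± 1.26, 92.1% ± 1.21 and 70.5% ± 0.840 (SD, n = 3 each) in the same order. Type IV chains were a small part in every line, at most 0.501% of the sum in any library. Diff cells thus held the fibrillar and type VI classes in nearly the proportions of U87, in a smaller pool, and GSCs stood apart by their share of type VI. Within the fibrillar share, however, U87 and Diff cells differed without overlap. Type I was 17.9% ± 1.15 of the sum in U87 and 21.0% ± 0.877 in Diff cells, and type V 5.27% ± 0.0802 and 2.06% ± 0.136 (SD, n = 3 each).

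Of the 44 chains, 21 had a mean above 1 TPM over the 9 libraries and were tested, namely 7 fibrillar, 3 type IV and 11 minor chains. A chain was called changed at an adjusted p under 0.05 and a log2 fold change beyond 1 in either direction, from limma on the deposited log2(TPM + 1) values. The added 1 compresses the fold changes of weakly expressed chains. The labels do not say whether libraries of a line came from separate cultures, so p-values measure the spread between these libraries only. In bulk RNA, fewer cells expressing a chain and less RNA per cell cannot be told apart. In GSCs versus U87, 10 chains were called, 2 higher and 8 lower, where 17.1% of all tested genes were called, 9.52% higher and 7.53% lower. In Diff cells versus U87, 7 chains were called, 1 higher and 6 lower, against 12.3% of all tested genes, 5.92% higher and 6.36% lower. The chains called higher than in U87 passed the filter only through the derived lines, so their place in these counts rested on the lines in which they were high. In Diff cells versus GSCs, 8 chains were called, 2 higher and 6 lower, against 8.01% of all tested genes, 2.66% higher and 5.36% lower. By adjusted p alone, 17, 18 and 16 of the 21 chains passed in the same order, where 48.6%, 39.4% and 34.8% of all tested genes did. The first pair of comparisons shares the U87 libraries, and each line enters 2 of the 3 comparisons. The median log2 fold change of the tested chains was -0.60 in GSCs versus U87, -0.79 in Diff cells versus U87 and 0.18 in Diff cells versus GSCs, where the medians of all tested genes were 0.02, -0.04 and -0.06. The ranges of the lines did not overlap for 16, 19 and 20 of the 21 chains in these comparisons, against 55.8%, 55.2% and 46.7% of all tested genes.

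**Figure D1:**
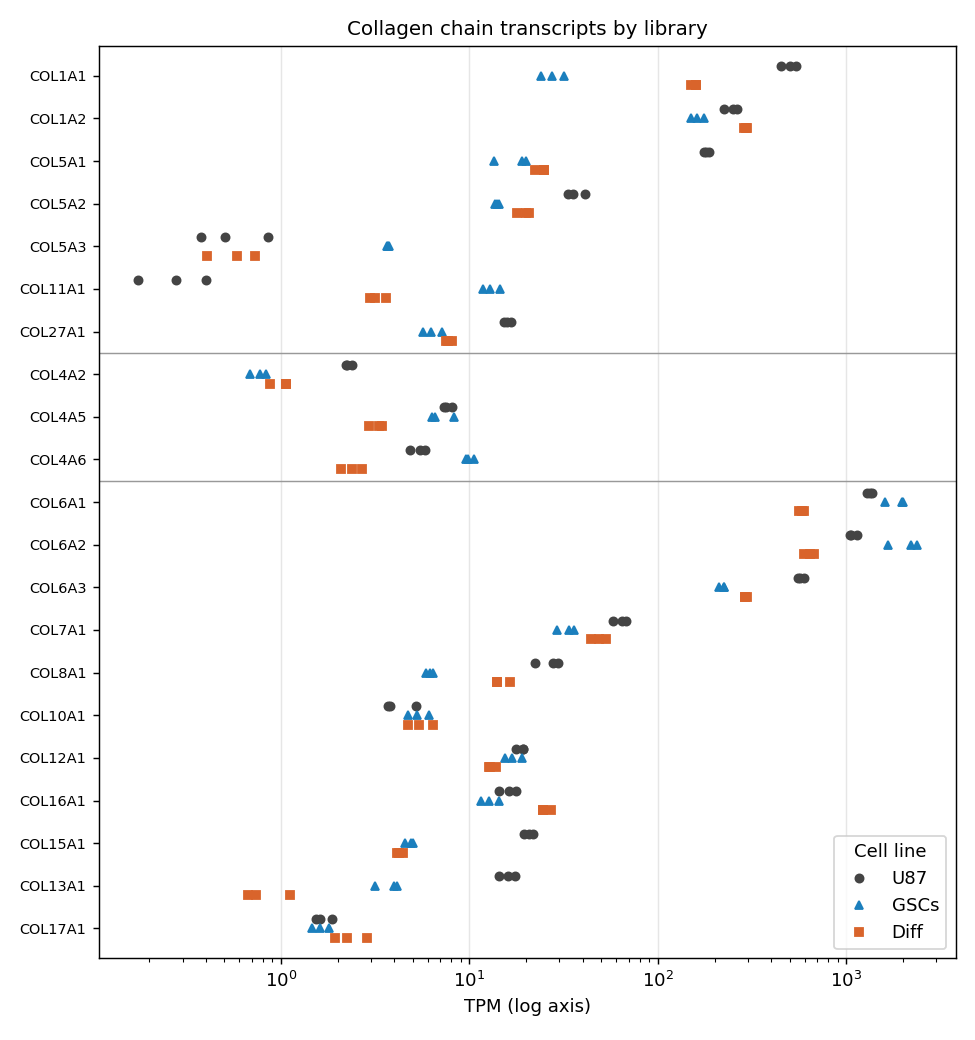
TPM (log axis) of the 21 tested chains in every library, with fibrillar chains at the top, type IV chains in the middle and minor chains at the bottom. COL6A1 and COL6A2 lie highest in all lines, COL1A1 spreads from 23.9 to 540 TPM over the libraries, and COL11A1 and COL5A3 are the fibrillar chains in which GSCs lie above both other lines.

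Fibrillar chains differed in both directions between the lines. In GSCs versus U87, 6 of the 7 tested were called, where 17.1% of all tested genes were. COL1A1, COL5A1, COL5A2 and COL27A1 were lower and COL5A3 and COL11A1 higher, and the seventh, COL1A2, was lower by less than the fold limit. COL5A3 passed the filter through GSCs alone and COL11A1 through GSCs and Diff cells, so the share of 17.1% is no neutral measure for them. COL1A1, which encodes the alpha chain present in pairs in the type I trimer, was 500, 452 and 540 TPM in U87, 27.6, 31.6 and 23.9 TPM in GSCs and 150, 160 and 160 TPM in Diff cells. No library of any line overlapped with those of another. The mean of GSCs was 18.0-fold below that of U87, and the difference on the log2 scale was -4.12 (standard error 0.101, adjusted p = 2.18e-08 from limma). Diff cells stood between the other lines, 2.47 above GSCs in log2 units (standard error 0.101, adjusted p = 1.41e-06) and 3.18-fold below U87 (log2 fold change -1.66, adjusted p = 3.83e-06).

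COL1A2 encodes the other chain of type I collagen, and it varied far less. It was 249, 225 and 262 TPM in U87, 149, 162 and 175 TPM in GSCs and 295, 286 and 296 TPM in Diff cells. GSCs were below U87 (log2 fold change -0.60, adjusted p = 0.000189) and Diff cells slightly above it (0.25, adjusted p = 0.0253), both within the fold limit of a call. The TPM ratio of COL1A1 to COL1A2 was 2.02 ± 0.0297 (SD, n = 3) in U87. It was 0.172 ± 0.0315 (SD, n = 3) in GSCs and 0.536 ± 0.0244 (SD, n = 3) in Diff cells, so that COL1A2 had the higher TPM in all 6 libraries of the derived lines. The level of this ratio rests on the gene lengths used. It is a ratio of transcripts and no measure of the 2 to 1 chain composition of the type I heterotrimer.

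Type V collagen regulates the diameter of type I fibrils by nucleating their assembly. Its COL5A1 chain was 187, 177 and 180 TPM in U87, 19.1, 20.002 and 13.4 TPM in GSCs and 22.3, 24.7 and 24.8 TPM in Diff cells. Both derived lines lay far below U87, 10.4-fold in GSCs (log2 fold change -3.32, standard error 0.129, adjusted p = 2.01e-07) and 7.57-fold in Diff cells (-2.87, standard error 0.129, adjusted p = 7.37e-07). Unlike COL1A1, COL5A1 differed by only 0.45 on the log2 scale between Diff cells and GSCs (adjusted p = 0.0263), and the ratio of COL1A1 to COL5A1 was accordingly 6.55 ± 0.167 (SD, n = 3) in Diff cells, 1.60 ± 0.167 (SD, n = 3) in GSCs and 2.74 ± 0.227 (SD, n = 3) in U87. COL5A2, its partner in the common type V trimer, moved in the same directions with smaller size, from 36.6 ± 3.97 TPM in U87 to 13.99 ± 0.405 TPM in GSCs and 19.6 ± 1.504 TPM in Diff cells (SD, n = 3 each). The TPM ratio of COL5A1 to COL5A2 was 4.99 ± 0.517 (SD, n = 3) in U87, 1.26 ± 0.286 (SD, n = 3) in GSCs and 1.23 ± 0.137 (SD, n = 3) in Diff cells.

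COL5A3 and COL11A1 went the other way in GSCs. COL5A3, the third type V chain, was 0.378, 0.850 and 0.504 TPM in U87, 3.66, 3.74 and 3.68 TPM in GSCs and 0.582, 0.725 and 0.406 TPM in Diff cells. The level in GSCs was 6.40-fold that of U87 (1.58 in log2 units, standard error 0.162, adjusted p = 5.79e-05), whereas Diff cells overlapped with U87 (0.00, 95% interval -0.37 to 0.37). COL5A3 stayed below 1 TPM in every library of U87 and Diff cells and passed the filter through GSCs alone. Its entry into the test thus rested on the line in which it was high. COL11A1, a type XI chain best known from cartilage and from invasive stroma, was 0.398, 0.174 and 0.279 TPM in U87, 12.9, 11.8 and 14.5 TPM in GSCs and 3.59, 2.96 and 3.14 TPM in Diff cells. The lines did not overlap, and the mean TPM was 46.1-fold higher in GSCs and 11.4-fold higher in Diff cells than in U87, on log2 fold changes of 3.45 and 1.72 (standard error 0.130, adjusted p = 1.71e-07 and 1.34e-05). These folds divide by a low U87 mean of 0.284 TPM, for which no counting interval could be derived. COL11A1 was the only chain called higher in Diff cells versus U87, and it ranked 29th of the 44 chains in U87, 10th in GSCs and 15th in Diff cells. It passed the filter through its levels in GSCs and Diff cells. The remaining tested fibrillar chain, COL27A1, which is expressed in cartilage and many epithelia, was lower in both derived lines, with log2 fold changes of -1.21 in GSCs (adjusted p = 1.06e-05) and -0.95 in Diff cells (adjusted p = 6.5e-05), the latter within the fold limit.

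COL3A1, the chain of type III collagen that accompanies type I in many tissues, was close to absent from all lines, between 0.102 and 0.484 TPM. COL2A1, COL11A2 and COL24A1 were also under the filter, at 0.287 TPM or less in every library. The fibrillar transcripts of these cells were therefore those of types I and V, with type XI and type XXVII chains at lower levels.

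**Figure D2:**
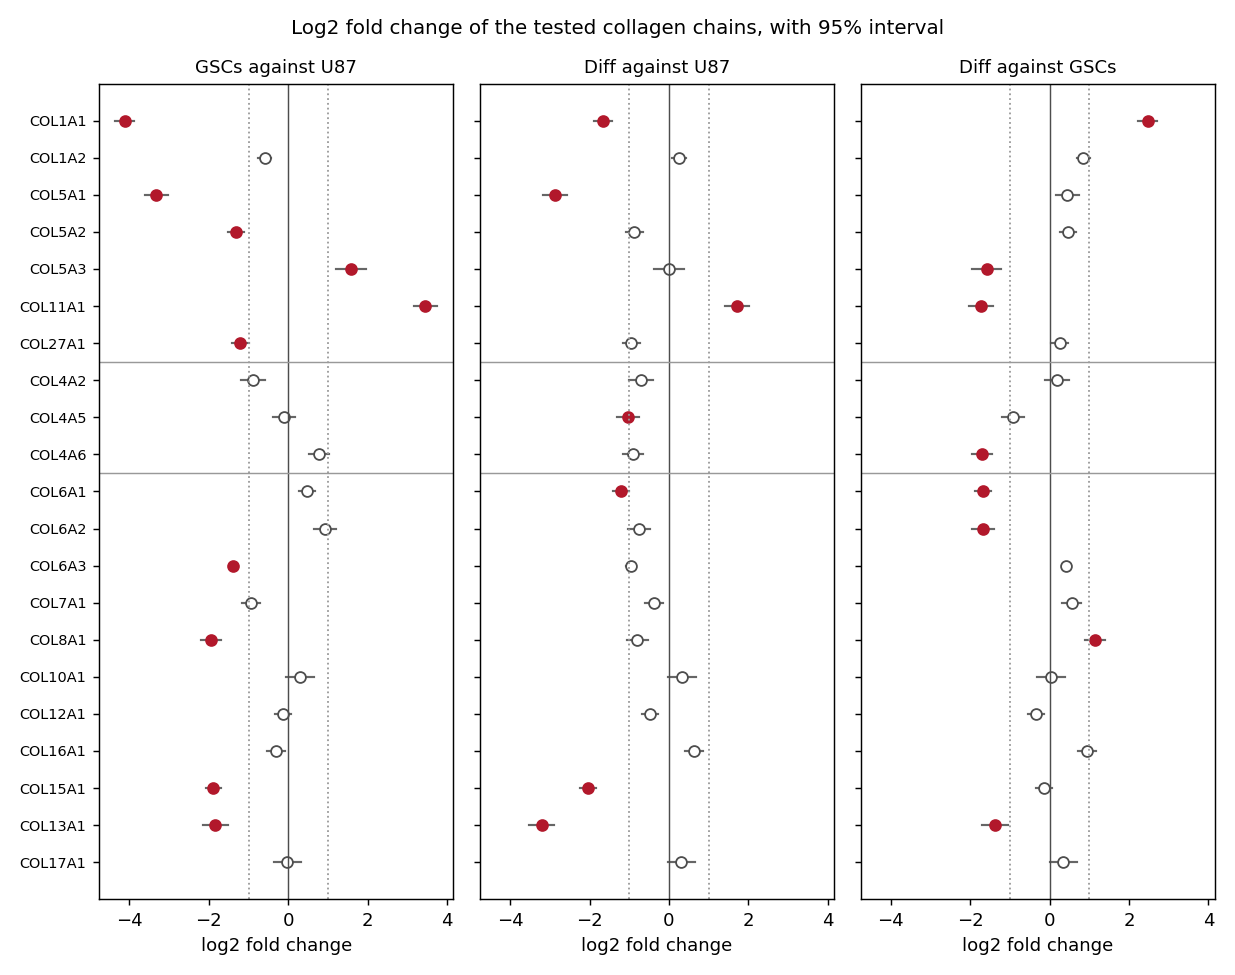
Log2 fold change with 95% interval of the 21 tested chains for GSCs versus U87, Diff cells versus U87 and Diff cells versus GSCs. Filled circles are chains called at an adjusted p under 0.05 and a log2 fold change beyond 1 (dotted lines); COL1A1 reaches -4.12 and COL11A1 reaches 3.45 in GSCs versus U87.

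The bases just upstream of the start of COL5A1, COL5A3 and COL11A1 are shown because COL5A1 was lower and COL5A3 and COL11A1 were higher in GSCs than in U87. They are RefSeq sequences of GRCh38.p14, written along the strand of the gene, without bases that GENCODE 29 places in an exon. COL5A1 is on the plus strand at chr9:134641553-134641773, COL5A3 on the minus strand at chr19:10010505-10010754, and COL11A1 on the minus strand at chr1:103108523-103108772, inside the longer GENCODE gene but in none of its exons. Capitals mark matches, on either strand, to 5 motifs, namely the TATA box (TATAAA), the CCAAT box (CCAAT), the GC box (GGGCGG), the AP-1 site (TGANTCA) and the NF-kB site.
COL5A1: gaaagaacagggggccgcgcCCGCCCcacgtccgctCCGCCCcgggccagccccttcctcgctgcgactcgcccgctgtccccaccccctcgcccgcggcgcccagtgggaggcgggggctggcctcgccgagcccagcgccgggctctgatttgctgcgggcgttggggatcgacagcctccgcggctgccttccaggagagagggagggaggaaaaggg
COL5A3: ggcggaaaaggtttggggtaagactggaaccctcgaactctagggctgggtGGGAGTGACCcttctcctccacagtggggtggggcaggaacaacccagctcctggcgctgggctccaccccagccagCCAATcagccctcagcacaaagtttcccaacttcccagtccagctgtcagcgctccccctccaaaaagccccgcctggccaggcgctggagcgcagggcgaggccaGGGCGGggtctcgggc
COL11A1: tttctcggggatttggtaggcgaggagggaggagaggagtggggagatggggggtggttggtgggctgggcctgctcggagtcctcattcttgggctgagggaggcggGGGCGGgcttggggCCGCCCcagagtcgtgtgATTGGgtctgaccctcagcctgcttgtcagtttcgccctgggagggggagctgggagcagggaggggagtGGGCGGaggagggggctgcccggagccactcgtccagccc
The COL5A1 segment held GC boxes only, 2 in number, that of COL5A3 1 CCAAT box, 1 GC box and 1 NF-kB match, and that of COL11A1 1 CCAAT box and 3 GC boxes. In windows of 250 bases before the RefSeq start, these motifs occurred in 42.6% of all 35097 windows for the GC box, 32% for the CCAAT box and 22.6% for the NF-kB match. Of the 16 tested chains with such a window, 11 held a GC box, 7 a CCAAT box, 5 an NF-kB match, 5 a TATA box (10.7% of all windows) and 1 an AP-1 match (6.57%). A chain was counted if any of its windows held the motif, and COL5A1, COL4A6 and COL10A1 had several windows. The percentages are shares of single windows, so the counts of chains cannot be compared with them directly. A match describes letters only and is not evidence of binding.

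Type IV collagen was represented by COL4A2, COL4A5 and COL4A6, each below 11 TPM. COL4A5 and COL4A6 encode chains that can join in 1 network in smooth muscle and some epithelial basement membranes, and they lie head to head on the X chromosome with starts 347 bases apart. COL4A5 was 8.10, 7.32 and 7.52 TPM in U87, 6.32, 6.57 and 8.32 TPM in GSCs and 3.44, 2.93 and 3.31 TPM in Diff cells. COL4A6 was 5.46, 4.85 and 5.82 TPM in U87, 9.79, 10.6 and 9.61 TPM in GSCs and 2.38, 2.09 and 2.67 TPM in Diff cells. Both were thus lowest in Diff cells without overlap, and COL4A6 alone was highest in GSCs without overlap. For COL4A6, Diff cells versus GSCs gave -1.70 in log2 units (standard error 0.1105, adjusted p = 1.15e-05), called, and GSCs versus U87 gave 0.79 (adjusted p = 0.000405), within the fold limit. For COL4A5, Diff cells versus U87 gave -1.03 (standard error 0.119, adjusted p = 0.000166), so near the limit of 1 that it fell to -0.989 with median-ratio scaling, to -0.966 with quantile normalization, to -0.981 without Diff replicate 2 and to -0.995 without U87 replicate 1, each short of a call. GSCs and U87 overlapped for COL4A5 (-0.11, 95% interval -0.38 to 0.16). The TPM ratio of COL4A6 to COL4A5 was 0.704 ± 0.0618 in U87, 1.44 ± 0.245 in GSCs and 0.737 ± 0.0624 in Diff cells (SD, n = 3 each).

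Part of the stretch between the starts of these genes, on the side of COL4A5, is shown because both were lowest in Diff cells while their ratio was highest in GSCs. It is on the plus strand upstream of COL4A5, at chrX:108439588-108439837, and does not reach the COL4A6 start. Its capitals mark 2 CCAAT boxes, 1 on each strand, with no match to the other motifs.
COL4A5: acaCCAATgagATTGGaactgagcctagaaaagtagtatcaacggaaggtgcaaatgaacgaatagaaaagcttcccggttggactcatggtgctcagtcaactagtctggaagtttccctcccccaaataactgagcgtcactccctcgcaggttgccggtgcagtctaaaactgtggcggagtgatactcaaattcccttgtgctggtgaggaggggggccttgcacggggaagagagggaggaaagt

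COL4A1 and COL4A2, the chains of the common basement membrane trimer, also lie head to head, on chromosome 13 with starts 1421 bases apart. COL4A2 was 2.27 ± 0.1003 TPM in U87, 0.761 ± 0.0722 TPM in GSCs and 1.001 ± 0.112 TPM in Diff cells (SD, n = 3 each). It was lower than in U87 in both derived lines, with log2 fold changes of -0.89 in GSCs (adjusted p = 0.000534) and -0.71 in Diff cells (adjusted p = 0.00261), which with a pseudocount of 0.1 in place of 1 became -1.47 and -1.11 and passed the fold limit. COL4A1, in contrast, did not exceed 0.107 TPM in any library. The ratio of COL4A2 to COL4A1 was between 6.40 and 67.3 over the libraries, a range set by COL4A1 values close to 0. COL4A3 and COL4A4, chains of the kidney glomerulus, had starts 112 bases apart on chromosome 2 and were under the filter. Both were nevertheless higher in all U87 libraries, at 0.709 ± 0.125 and 0.370 ± 0.0666 TPM, than in GSCs, at 0.264 ± 0.0495 and 0.143 ± 0.0474 TPM, or Diff cells, at 0.205 ± 0.0348 and 0.112 ± 0.0272 TPM (SD, n = 3 each). With introns counted, 97.3% of the exon bases of COL4A3 lie within other genes. The part of reads from those genes in its values was not tested.

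Type VI collagen was the most abundant type in all lines. COL6A1 and COL6A2 encode the short chains of the monomer and COL6A3 the long one, and a monomer holds the 3 chains in equal number. COL6A1 was 1377, 1282 and 1328 TPM in U87, 1968, 2010 and 1595 TPM in GSCs and 599, 578 and 561 TPM in Diff cells. COL6A2 was 1144, 1041 and 1065 TPM in U87, 2210, 2360 and 1674 TPM in GSCs and 677, 643 and 595 TPM in Diff cells. Both were highest in GSCs and lowest in Diff cells with no overlap, and the third GSCs library was the lowest of its line for each. Diff cells versus GSCs gave log2 fold changes of -1.67 for COL6A1 (standard error 0.0886, adjusted p = 4.15e-06) and -1.69 for COL6A2 (standard error 0.121, adjusted p = 1.97e-05), both called. GSCs versus U87 gave 0.48 (adjusted p = 0.00205) and 0.93 (adjusted p = 0.000262), and without GSCs replicate 3 the value of COL6A2 was 1.08 and passed the fold limit. Diff cells versus U87 gave -1.20 for COL6A1 (adjusted p = 1.18e-05), called, and -0.76 for COL6A2 (adjusted p = 0.0011).

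COL6A3 followed another order. It was 596, 568 and 552 TPM in U87, 210, 224 and 224 TPM in GSCs and 296, 290 and 291 TPM in Diff cells, lowest in GSCs, where its short partners were highest. The log2 fold change was -1.38 in GSCs versus U87 (standard error 0.0484, adjusted p = 1.12e-07), called, -0.97 in Diff cells versus U87 (adjusted p = 1.27e-06) and 0.41 in Diff cells versus GSCs (adjusted p = 0.000304). The TPM ratio of COL6A1 to COL6A3 was therefore 8.49 ± 1.21 (SD, n = 3) in GSCs, against 2.32 ± 0.0752 (SD, n = 3) in U87 and 1.98 ± 0.0490 (SD, n = 3) in Diff cells. The level of this ratio also rests on the gene lengths used and is no measure of the chain composition of the monomer. The ratio of COL6A1 to COL6A2 stayed near 1 throughout, at 1.23 ± 0.0219, 0.898 ± 0.0511 and 0.909 ± 0.0304 in U87, GSCs and Diff cells (SD, n = 3 each), with U87 above both derived lines in every library. COL6A1 and COL6A2 lie 116360 bases apart, start to start, on chromosome 21, and COL6A3 lies on chromosome 2. The alternative long chains COL6A5 and COL6A6 were under the filter. COL6A5 was nevertheless 0.485, 0.641 and 0.990 TPM in GSCs and at most 0.0364 TPM in the libraries of U87 and Diff cells, whereas COL6A6 overlapped between all lines at 0.193 to 0.340 TPM.

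**Figure D3:**
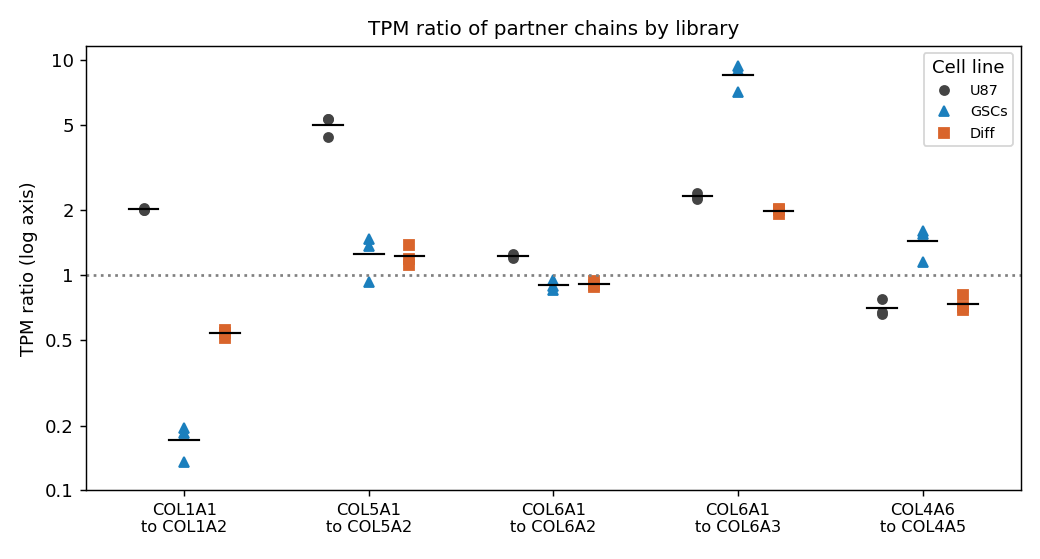
TPM ratio (log axis) of chains that share a trimer, in each library, with a bar at the mean of each line and a dotted line at equal levels. COL1A1 to COL1A2 is 2.02 in U87, 0.172 in GSCs and 0.536 in Diff cells, and COL6A1 to COL6A3 is 8.49 in GSCs against 2.32 and 1.98 in the other lines.

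The sequence upstream of COL6A2 is given as that of the most abundant chain of GSCs and Diff cells. It lies on the plus strand at chr21:46097862-46098096, and its capitals mark 1 TATA box, 4 GC boxes and 1 NF-kB match.
COL6A2: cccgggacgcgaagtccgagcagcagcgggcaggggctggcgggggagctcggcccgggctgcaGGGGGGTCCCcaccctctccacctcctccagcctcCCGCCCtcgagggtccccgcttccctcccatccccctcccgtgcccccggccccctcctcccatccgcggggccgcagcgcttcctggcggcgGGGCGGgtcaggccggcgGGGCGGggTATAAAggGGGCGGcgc

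Among the other tested minor collagens, the largest log2 fold changes were those of COL13A1 and COL15A1, both lower in the derived lines than in U87. COL13A1 encodes a transmembrane collagen of cell adhesion sites. It was 16.0, 14.4 and 17.4 TPM in U87, 3.15, 3.9995 and 4.12 TPM in GSCs and 1.11, 0.736 and 0.671 TPM in Diff cells, falling in this order of lines with no overlap. All 3 comparisons were called, at log2 fold changes of -1.83 in GSCs versus U87 (adjusted p = 1.01e-05), -3.21 in Diff cells versus U87 (adjusted p = 6.64e-07) and -1.37 in Diff cells versus GSCs (adjusted p = 0.00015). COL15A1, a multiplexin that borders basement membranes, was 21.6, 20.8 and 19.4 TPM in U87, 4.54, 4.87 and 5.03 TPM in GSCs and 4.12, 4.41 and 4.25 TPM in Diff cells. The derived lines were 4.28-fold and 4.84-fold below U87, on log2 fold changes of -1.89 (adjusted p = 4.16e-07) and -2.04 (adjusted p = 4.56e-07), and Diff cells versus GSCs gave -0.14 (95% interval -0.33 to 0.05). Its relative COL18A1, the precursor of endostatin, was under the filter on average, at 1.13 ± 0.0463 TPM in GSCs against 0.629 ± 0.154 TPM in U87 and 0.458 ± 0.112 TPM in Diff cells (SD, n = 3 each). Of its exon bases, 16.4% overlap exons of SLC19A1 on the opposite strand, and reads of the genes cannot be told apart there if they were counted without strand. With introns counted, 55.0% of the exon bases of COL18A1 lie within other genes.

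COL8A1, a short-chain collagen of vessel walls and of Descemet's membrane in the eye, was 27.8, 22.3 and 29.6 TPM in U87, 5.87, 6.38 and 6.16 TPM in GSCs and 16.4, 14.1 and 14.02 TPM in Diff cells. Its order of U87, Diff cells, GSCs was a common one, found without overlap also for COL1A1, COL5A1, COL5A2, COL27A1, COL4A2 and COL6A3. COL1A1 and COL8A1 were the only tested chains called higher in Diff cells versus GSCs. The log2 fold change of COL8A1 was -1.94 in GSCs versus U87 (adjusted p = 1.85e-06) and 1.15 in Diff cells versus GSCs (adjusted p = 0.000112). COL7A1, which forms the anchoring fibrils beneath epithelia, kept the same order with less range, at 63.4 ± 5.33, 48.6 ± 4.60 and 32.8 ± 3.45 TPM (SD, n = 3 each), and passed the fold limit in no comparison.

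COL16A1, like COL1A2, was highest in Diff cells without overlap. This FACIT collagen, a kind that attaches to the surface of fibrils, was 27.1, 24.6 and 24.6 TPM there, against 17.6, 14.4 and 16.3 TPM in U87 and 11.5, 14.4 and 12.7 TPM in GSCs. Diff cells versus GSCs gave a log2 fold change of 0.94 (adjusted p = 0.000198), which reached 1.01 with quantile normalization, 1.02 without RN7SL1 and mitochondrial genes and 1.01 without GSCs replicate 2. COL14A1, another FACIT collagen, was under the filter on average but was 2.28, 1.84 and 2.12 TPM in Diff cells, with 0.413 to 0.735 TPM in GSCs and 0.124 to 0.269 TPM in U87, so that its mean in Diff cells was 10.9-fold that of U87. Tested without the filter, COL14A1 was called higher in Diff cells than in U87 (1.37 in log2 units, adjusted p = 0.000139) and than in GSCs (1.01, adjusted p = 0.00117). COL12A1, the FACIT collagen most often found with type I fibrils, was 18.7 ± 0.959, 17.0 ± 1.74 and 13.1 ± 0.567 TPM in U87, GSCs and Diff cells (SD, n = 3 each), within the fold limit throughout.

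COL10A1 and COL17A1 passed the test in no comparison. COL10A1, known from hypertrophic cartilage, was 3.69 to 6.40 TPM over all libraries, with log2 fold changes of 0.04 to 0.32. All of its exon bases lie within introns of NT5DC1, a gene of the opposite strand at 10.2 to 18.3 TPM, and if reads were counted without strand, intron reads of NT5DC1 cannot be told apart from reads of COL10A1. COL17A1, a transmembrane collagen of hemidesmosomes in skin, was 1.53 to 1.87 TPM in U87, 1.45 to 1.79 TPM in GSCs and 2.86, 2.23 and 1.93 TPM in Diff cells. Its highest value came from Diff replicate 1, the library in which the epithelial keratins KRT5 and KRT14 were at 5.54 and 6.03 TPM, when no other library exceeded 0.0661 TPM of either. The part of this difference between libraries in the COL17A1 value was not tested.

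Of the 23 chains under the filter, COL14A1 and COL18A1 exceeded 1 TPM in the mean of a line, 12 reached 0.1 to 1 TPM in their highest line, and 9 stayed below 0.1 TPM on average in every line. None was listed at 0 in all libraries, and 10 chains were listed at 0 in at least 1. Just inside the filter were COL4A2 at a mean of 1.35 TPM over the 9 libraries and COL5A3 at 1.61 TPM, and just outside it COL14A1 at 0.936 TPM and COL18A1 at 0.739 TPM. COL4A2 passed through its level in U87 and COL5A3 through its level in GSCs, the lines in which they were highest.

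The position of the chains in the genome was compared with the change of the genes beside them, up to 12 expressed genes on each side. COL1A1, on the minus strand at chr17:50183289-50201632 (GENCODE 29), had a lower log2 fold change than all 24 of its neighbours both in GSCs and in Diff cells versus U87, and their medians were 0.02 and 0.13. COL15A1, on the plus strand at chr9:98943179-99070792, likewise lay below all 24 neighbours in both comparisons, and COL11A1, on the minus strand at chr1:102876467-103108872, lay above all 24. COL5A1, on the plus strand at chr9:134641774-134844843, and COL13A1, on the plus strand at chr10:69801867-69964275, each lay below 23 of 24 in both. These 5 chains are among those of largest change. COL8A1 also lay below all 24 neighbours in GSCs versus U87, and COL6A1 below all 22 of its neighbours in Diff cells versus U87. In Diff cells versus GSCs, COL1A1 and COL8A1 lay above all 24, COL11A1 below all 24, and COL6A1 and COL6A2 below all 22. The remaining values lay within the range of the neighbours. In GSCs versus U87, COL4A5 lay above 10 of its 24 neighbours and COL16A1 above 7 of 24, and in Diff cells versus U87 COL7A1 lay above 6 of 24. COL1A2, on the plus strand at chr7:94394561-94431232, had neighbours whose medians were 0.49 in GSCs and 0.40 in Diff cells versus U87, above its own values of -0.60 and 0.25.

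The fibrillar chains also shared a gene structure that the symbol does not carry. Of 649 coding exons of the 11 fibrillar genes, 82.9% had a length divisible by 9, the bases of 1 Gly-X-Y triplet, and 47.0% were exactly 54 bases long. For all protein-coding genes these shares were 14.3% and 0.655%. Type IV genes, whose triple helix is interrupted, had 46.5% and 4.04%, beaded filament genes of type VI 50.8% and 7.73%, and FACIT genes 52.5% and 25.6%. COL1A1 and COL11A1, which moved in opposite directions in GSCs, were alike in this, with 45 of 51 and 53 of 67 coding exons divisible by 9.

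Genes that modify, cleave, cross-link and bind collagen were examined as a list of 55, of which 46 passed the filter. In Diff cells versus U87, 15 of them were called, 2 higher and 13 lower, in GSCs versus U87 12, with 2 higher and 10 lower, and in Diff cells versus GSCs 6, with 2 higher and 4 lower, where 12.3%, 17.1% and 8.01% of all tested genes were called. Their median log2 fold changes were -0.30, -0.40 and -0.05, beside -0.04, 0.02 and -0.06 over all tested genes. The list was chosen with earlier results of these data known, so these counts and medians describe its members and are no test of them. The lowest values belonged to a cross-linking enzyme. LOXL2, a lysyl oxidase that also acts on type IV collagen, was 347, 354 and 332 TPM in U87, 36.6, 35.8 and 24.9 TPM in GSCs and 35.2, 40.4 and 38.3 TPM in Diff cells, with log2 fold changes of -3.39 (adjusted p = 2.04e-07) and -3.15 (adjusted p = 5.15e-07) against U87. LOX, the founding member of the family, was 234, 234 and 216 TPM in U87 and 204, 182 and 129 TPM in GSCs but 56.5, 52.1 and 51.3 TPM in Diff cells, which was called against U87 (-2.08, adjusted p = 8.86e-06) and against GSCs (-1.65, adjusted p = 6.48e-05). LOXL3 fell from 54.003 ± 1.31 TPM in U87 to 19.8 ± 3.51 TPM in GSCs and 10.9 ± 0.328 TPM in Diff cells (SD, n = 3 each).

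Of 18 tested enzymes and chaperones of chain synthesis, 4 were called lower and 1 higher in GSCs versus U87, and 5 lower and 1 higher in Diff cells versus U87. Of all tested genes, 7.53% were called lower and 9.52% higher in GSCs, and 6.36% lower and 5.92% higher in Diff cells. The calls in the higher direction were thus no more frequent than among all genes. SERPINH1, the collagen chaperone HSP47, was 121, 116 and 113 TPM in U87, 42.1, 43.9 and 34.2 TPM in GSCs and 55.4, 56.0 and 56.8 TPM in Diff cells. It fell in GSCs (log2 fold change -1.52, adjusted p = 1.56e-06) and in Diff cells (-1.04, adjusted p = 2.18e-05), the latter call being lost at -0.99 with median-ratio scaling. The lysyl hydroxylases PLOD1 and PLOD2 fell in both lines against U87, by 1.19 and 1.40 on the log2 scale in GSCs and by 1.24 and 1.86 in Diff cells. P4HA1, a catalytic subunit of prolyl 4-hydroxylase, fell by 1.86 in Diff cells versus U87 (adjusted p = 1.07e-06), and its partner P4HB was 159 ± 3.02, 98.2 ± 9.06 and 104 ± 4.34 TPM in U87, GSCs and Diff cells (SD, n = 3 each), short of a call. TMEM38B, an endoplasmic reticulum cation channel whose loss disturbs collagen modification, was called higher in both lines, at 50.2 ± 9.56 TPM in GSCs and 47.2 ± 1.92 TPM in Diff cells versus 19.9 ± 0.691 TPM in U87 (SD, n = 3 each).

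BMP1, the protease that removes the C-propeptide of fibrillar procollagens, was 30.9, 30.9 and 32.5 TPM in U87, 7.99, 8.70 and 5.79 TPM in GSCs and 34.6, 33.1 and 30.8 TPM in Diff cells. It was low in GSCs alone, by -1.95 against U87 (adjusted p = 3.17e-06), and Diff cells versus U87 gave 0.06 (adjusted p = 0.745). ADAMTS3, an N-propeptidase, fell in both derived lines against U87, by 1.54 in GSCs and 1.15 in Diff cells. Its means were 3.06, 0.404 and 0.835 TPM in U87, GSCs and Diff cells, so that it passed the filter through U87. Among matrix partners, LUM, the fibril-binding proteoglycan lumican, was 1.53, 0.756 and 1.80 TPM in U87 and 0.924, 0.539 and 1.06 TPM in GSCs but 26.9, 23.9 and 22.04 TPM in Diff cells (log2 fold change 3.44 against U87, adjusted p = 2.72e-06). LUM passed the filter through its level in Diff cells. SPARC, which binds collagen in the matrix, fell from 414 ± 29.03 TPM in U87 to 184 ± 13.5 TPM in GSCs and 200 ± 7.71 TPM in Diff cells (SD, n = 3 each), and its call in Diff cells, at -1.04, was lost under 3 scalings, at -0.977 to -0.997, and without U87 replicate 3.

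Of the collagen-binding integrins, the common beta subunit ITGB1 fell in both derived lines, from 144 ± 6.95 TPM in U87 to 57.6 ± 4.87 TPM in GSCs and 43.6 ± 4.10 TPM in Diff cells (SD, n = 3 each). The alpha subunits that pair with it differed among themselves. ITGA2 fell in Diff cells versus U87 by 1.53 on the log2 scale (adjusted p = 0.000131). ITGA10 rose in GSCs, with 24.2, 26.4 and 33.8 TPM against 10.7, 8.85 and 13.0 TPM in U87 and 10.5, 9.67 and 9.12 TPM in Diff cells (1.30 against U87, adjusted p = 0.000139). ITGA11 was also highest in GSCs, where it stood at 5.59 ± 0.959 TPM beside 2.34 ± 0.387 TPM in U87 and 1.76 ± 0.173 TPM in Diff cells (SD, n = 3 each), and was called in Diff cells versus GSCs (-1.24, adjusted p = 0.00039).

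The lines carried the markers of cultured mesenchymal-like glioblastoma, with VIM, CD44, CHI3L1 and FN1 summing to 2989 to 3903 TPM in every library. These genes moved in opposite directions within the sum. In U87, GSCs and Diff cells, mean VIM was 1640, 1214 and 616 TPM and mean FN1 1556, 971 and 916 TPM. CD44 was 405, 427 and 296 TPM, whereas CHI3L1 was 107, 557 and 1809 TPM. The 5 glial markers summed to 6.27 to 11.8 TPM over the libraries, most of it OLIG2 at line means of 5.37 to 8.75 TPM, with GFAP at 0.809 to 2.29 TPM and AQP4 at or near 0. The 4 neural stem markers summed to 32.4 to 36.4 TPM in U87, 27.5 to 29.8 TPM in GSCs and 15.6 to 17.3 TPM in Diff cells. NES carried most of these sums and was highest in U87, at 33.03 ± 2.22 TPM beside 22.6 ± 0.812 TPM in GSCs, whereas SOX2 (0.879 ± 0.101 TPM), PROM1 (0.507 ± 0.113 TPM) and FABP7 (4.91 ± 0.796 TPM) were higher in GSCs than in every library of the other lines (SD, n = 3 each). Of 7 fibroblast and pericyte markers, 4 or 5 exceeded 1 TPM in a line and their sum was 71.3 to 76.7 TPM in U87, 46.1 to 61.4 TPM in GSCs and 106 to 126 TPM in Diff cells, with THY1 below 0.1 TPM in all libraries. The members of this list did not share an order. FAP was 9.75, 30.4 and 72.5 TPM on average in U87, GSCs and Diff cells and LUM 1.36, 0.841 and 24.3 TPM, but PDGFRB was 56.6, 12.1 and 11.7 TPM, highest in U87 as COL1A1 and COL5A1 were. The 4 endothelial markers summed to 17.1 to 19.4 TPM in GSCs and to at most 6.47 TPM in the other lines, largely through VWF and PECAM1. VWF averaged 11.4 TPM and PECAM1 6.25 TPM in GSCs, both above every library of the other lines. CDH5 reached at most 0.465 TPM, and CDH5 and CLDN5 overlapped between all lines. The 4 immune markers summed to 1.74 to 3.37 TPM over the libraries, mostly CD68 at line means of 2.25 to 2.48 TPM, while PTPRC and AIF1 stayed below 0.137 TPM. The 4 epithelial markers summed to at most 2.05 TPM except in Diff replicate 1, at 12.6 TPM. The part of these marker genes' sources in the collagen values was not tested. Mitochondrial genes took 25.9% to 31.8% and RN7SL1 5.73% to 9.79% of the TPM of a library.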

How the data were processed

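RNA-seq of U87, GSCs and Diff cells, 3 libraries each, was analysed from the table of log2(TPM + 1) per gene and library that the authors deposited. Gene length and library total had been divided out by the authors before the log2 was taken, and 2 raised to each value, less 1, summed to 1000000 per library. The submitters' processing notes name FastQC 0.11.9, Trimmomatic 0.39, HISAT2 2.2.1, featureCounts 2.0.5, R 4.2.0 and GRCh38. The annotation release and the strand setting are not given in the sources used here. The study's methods describe Trizol and oligo(dT) beads, whereas the labels describe Magzol, removal of ribosomal RNA and a directional kit. TPM keeps no depth, so no counting interval was derived and precision rests on the spread between libraries.

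The 22909 genes whose TPM averaged over 1 entered limma 3.58.1 (R 4.3.3), with lmFit and a trended eBayes, in a joint model of all 9 libraries, with the line as the only term and Benjamini-Hochberg adjustment over all genes tested in each comparison. A call needed an adjusted p under 0.05 together with a log2 fold change beyond 1 in size. Sums and ratios of TPM and lists of genes were described without a test. On simulated data the fit was checked before use. Any collagen chain could be named. Of the processing and receptor genes, SERPINH1, P4HB, LOX, SPARC and ITGB1 were always named, with up to 12 others of largest change among those called. The members and lists were chosen with earlier results of these data known. Coordinates, exons and neighbouring genes with a mean TPM over 5 came from GENCODE 29, and upstream sequences from RefSeq for GRCh38.p14, which held windows for 32 of the 44 chains. Protein sequences were not used here. Alternatives covered the pseudocount, the filter, the scaling, the libraries in the fit, the variance model, the call rule, a replicate block and leaving out single libraries. Further steps used Python 3.11.15 with pandas 2.3.3 and numpy 2.4.6, and plots matplotlib 3.10.9.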

Additional observations from a re-analysis of the deposited data

How the results depend on the processing

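No result reversed its direction under any alternative tried where it had been called. Dropping the fold limit and keeping the adjusted p under 0.05 raised the counts, since that rule asks less of a gene. Of the 21 tested chains, 18 passed in Diff cells versus U87 (3 higher, 15 lower). In GSCs versus U87 17 passed (5 higher), and in Diff cells versus GSCs 16 (8 higher). Of the 46 tested processing and receptor genes, 33 (9 higher, 24 lower), 37 (12 higher, 25 lower) and 18 (5 higher, 13 lower) passed in this order. The shares of all tested genes were 39.4%, 48.6% and 34.8%, so that the last count was close to its share. Without the filter, 2 chains were higher in Diff cells versus U87, and with a mean TPM over 5 only 1 was higher in GSCs versus U87, because COL14A1 entered and COL5A3 left the test. With log2(TPM + 0.1), 10, 11 and 9 chains were called in Diff cells versus U87, GSCs versus U87 and Diff cells versus GSCs, with COL27A1, COL4A2, COL4A6 and COL4A5 passing the fold limit, and 5 processing and receptor genes were higher in GSCs versus U87. The share of all tested genes called with this pseudocount is not given here. Without RN7SL1 and mitochondrial genes, which rescales every library, the summed TPM of the chains was 6563 in U87, 7052 in GSCs and 3499 in Diff cells. With 1 library left out, the chains called ranged from 6 to 7 in Diff cells versus U87 (5 to 6 lower), from 10 to 11 in GSCs versus U87 (2 to 3 higher) and from 8 to 9 in Diff cells versus GSCs (2 to 3 higher), and processing and receptor genes from 14 to 15, from 11 to 13 and at 6. No label says what libraries with the same replicate number share, and they were not treated as pairs. Deviations of libraries with the same number correlated at -0.042 to 0.049 across genes, and those with different numbers at -0.058 to 0.054. These values do not show whether libraries with the same number were handled together. With the replicate number as a block the chains called were 7, 10 and 8 and the processing and receptor genes 15, 12 and 6, as without it. The 9 libraries and the lack of depth in TPM limit the weakly expressed chains most.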
